A study of Homo sapiens with 6 samples.

Results

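Genes of the unfolded protein response and of protein folding in the endoplasmic reticulum (ER) were followed after depletion of BZW2 in HCT116, HT29 and SW480 cells, 3 established lines from human colorectal cancers, the first of them labelled HCT116WT. The set is a list of 42 gene symbols named by function. No cut on expression values was used, but the list was chosen with earlier results of these data known. Of the 42 symbols, 40 were among the 13021 gene identifiers with a single row in the deposited table. TXNDC5 and DERL3 were not analysed here. All 40 were listed in all 3 lines and entered the test across lines together with 10875 genes in all. The members were divided by role into 6 sensors and transcription factors, 12 chaperones, 8 disulfide enzymes, 11 genes of degradation and 3 of translocation and vesicle transport.

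In each line, cells stably transduced with a lentivirus carrying a BZW2 short hairpin RNA (shRNA) were set against cells with a non-targeting shRNA. Puromycin (1 µg/ml) selected both kinds, so controls share the vector and the drug. The study asked which genes and pathways change when BZW2 is depleted. There was 1 library per line and treatment, the labels name 1 BZW2 hairpin, and nothing tells of repeat cultures. The 3 lines therefore served as replicates. The p-values set a difference against the spread between lines, pooled in part over all genes, and not against repeat cultures of a line.

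The ER folds secreted and membrane proteins. When unfolded proteins accumulate there, the membrane sensors IRE1 (encoded by ERN1), ATF6 and PERK (EIF2AK3) start the unfolded protein response, in which spliced XBP1, cleaved ATF6 and, downstream of PERK, ATF4 and CHOP act as transcription factors. Their targets include chaperones such as BiP (HSPA5), disulfide isomerases, and the machinery of ER-associated degradation, which returns misfolded proteins to the cytosol for the proteasome. Secretory epithelia of the intestine are known to depend on this response.

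Depth over listed genes was 2187373 to 9317444 reads per library, lowest in the HCT116 knockdown library. BZW2 itself stood at 17.6% of control in HCT116, 13.5% in SW480 and 8.69% in HT29. Of 14 epithelial markers, 9 were listed, among them EPCAM, CDH1, KRT8 and KRT18. Their summed signal was 38016 to 87406 normalised reads in knockdown and 13912 to 99174 in control libraries, with HCT116 at 53041 in knockdown against 13912 in control. KRT20, VIL1, CDX1, LGALS4 and GPA33 were not listed. Of 12 markers of immune, stromal and endothelial cells, 11 were not listed, and the summed signal of the list was at most 28.8 normalised reads in any library. The libraries are bulk samples, so fewer cells of a type and less RNA per cell cannot be told apart. Within HCT116, log2 ratios of all genes spread more widely (SD 1.58) than in HT29 (0.67) or SW480 (0.70), and they followed the GC content of the transcript (Spearman 0.66 across 11953 genes, against 0.31 in HT29 and −0.06 in SW480). HCT116 ratios are therefore also given after removal of the trends on GC content and transcript length, as corrected ratios.

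Promoters are shown for members that carry a known binding element of the response, because ATF6 and XBP1 act through such elements. The ER stress response element (ERSE) was searched as CCAAT followed by 9 bases of any kind and CCACG. ERSE-II was searched as ATTGG, 1 base of any kind and CCACG, and the unfolded protein response element as TGACGTGG, each on both strands. In HYOU1, not printed here, TGACGTGG overlaps an ERSE-II. Windows of 250 bases before to 50 after each RefSeq start (GRCh38.p14) matched 38 of the 42 symbols; PDIA3, DERL1, DERL3 and SEC24D had none. An ERSE was found for 8 of these 38 members (21.1%) and for 0.0916% of all 27305 genes with a window. ERSE-II was found for 3 members (7.89%) and 0.0696% of genes, and TGACGTGG for 4 members (10.5%) and 0.927% of genes. Capitals mark the ERSE or ERSE-II, on either strand, in these stretches upstream of the start, written along the strand of the gene: HSPA5 at chr9:125241379-125241421 (minus strand), HSP90B1 at chr12:103930204-103930351 (plus), HERPUD1 at chr16:56932013-56932047 (plus), XBP1 at chr22:28800591-28800633 (minus), PDIA6 at chr2:10812841-10812883 (minus), CALR at chr19:12938372-12938414 (plus) and SDF2L1 at chr22:21642102-21642136 (plus).
HSPA5: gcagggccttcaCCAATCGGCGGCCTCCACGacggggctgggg
HSP90B1: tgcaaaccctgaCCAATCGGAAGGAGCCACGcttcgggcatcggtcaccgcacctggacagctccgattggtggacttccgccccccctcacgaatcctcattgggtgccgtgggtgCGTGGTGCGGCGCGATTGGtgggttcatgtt
HERPUD1: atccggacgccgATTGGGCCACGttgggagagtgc
XBP1: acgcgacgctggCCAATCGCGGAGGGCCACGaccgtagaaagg
PDIA6: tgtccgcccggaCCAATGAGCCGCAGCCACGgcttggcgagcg
CALR: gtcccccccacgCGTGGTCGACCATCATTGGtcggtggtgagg
SDF2L1: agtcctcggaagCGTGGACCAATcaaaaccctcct

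Most ER folding and response genes were lower after BZW2 depletion. Of the 40 members, 35 (87.5%) had a negative log2 fold change across lines and 5 a positive one, where 48.9% and 51.1% of all genes did. In each of the 3 lines 25 members (62.5%) were lower, where 21.1% of all 10875 genes were, and 1 member, EDEM2, was higher in each, where 22.3% of all genes were. HSPA5, DNAJB9, ERO1B, HERPUD1 and SEL1L were at least 2-fold lower in every line, 12.5% of members beside 0.736% of all genes, and all 5 stayed past that fold in every line after the trend correction. No member passed the threshold in the limma test across lines (smallest adjusted p = 0.250 among members), which called 0% of all genes in either direction. At an unadjusted limma p under 0.05, 19 members (47.5%) were lower and 0 higher, where 7.04% and 6.59% of all genes were. DESeq2 on the recovered reads called 7 members as lower and 0 as higher, where 1.23% and 1.01% of all genes were: HSPA5, HSP90B1, DNAJB9, ERO1B, HERPUD1, SEL1L and SEC24D. In edgeR the adjusted calls were 0, with 18 members lower at an unadjusted p under 0.05, where 6.79% of all genes were. The limma fit on 2 lines called 9 members as lower without HCT116 (1.39% of genes lower, 1.72% higher), 4 without HT29 (0.248% lower, 0.276% higher) and 4 without SW480 (0.855% lower, 0.405% higher). The fit on corrected ratios called 0 members and 0.0276% of genes as lower.

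The median difference was largest in HCT116 and smallest in HT29. At least 2-fold lower were 25 members in HCT116 (62.5%, against 28.8% of all genes with enough reads), 18 in SW480 (45%, against 7.36%) and 8 in HT29 (20%, against 6.17%). At least 2-fold higher was 1 member in HCT116 (2.5%, against 26.8% of genes), and there were 0 in HT29 (against 3.74%) and 0 in SW480 (against 4.98%). Median log2 ratios of the members were −1.14 in HCT116, −0.90 in SW480 and −0.38 in HT29, where the medians of all genes were −0.04, 0.01 and 0.01 in that order. After the trend correction the HCT116 median was −0.97 and 20 members were at least 2-fold lower, where 16.8% of genes were. Of the 25 members lower before correction 17 were among them, and ATF6B, CALR and HYOU1 passed the fold only after it. The sign of the HCT116 ratio differed after correction for 9 members: ATF6B, DERL2, DNAJB11, EDEM2, ERO1A, SDF2L1, SEC61A1, SYVN1 and TXNDC11. Without HCT116, 28 members (70%) were lower in both HT29 and SW480, against 30.7% of genes. The 40 transcripts together took 0.589% of the reads of the knockdown library and 2.57% of the control library in HCT116, 0.812% and 1.14% in the HT29 knockdown and control libraries, and 0.825% and 1.87% in those of SW480.

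**Figure D1:**
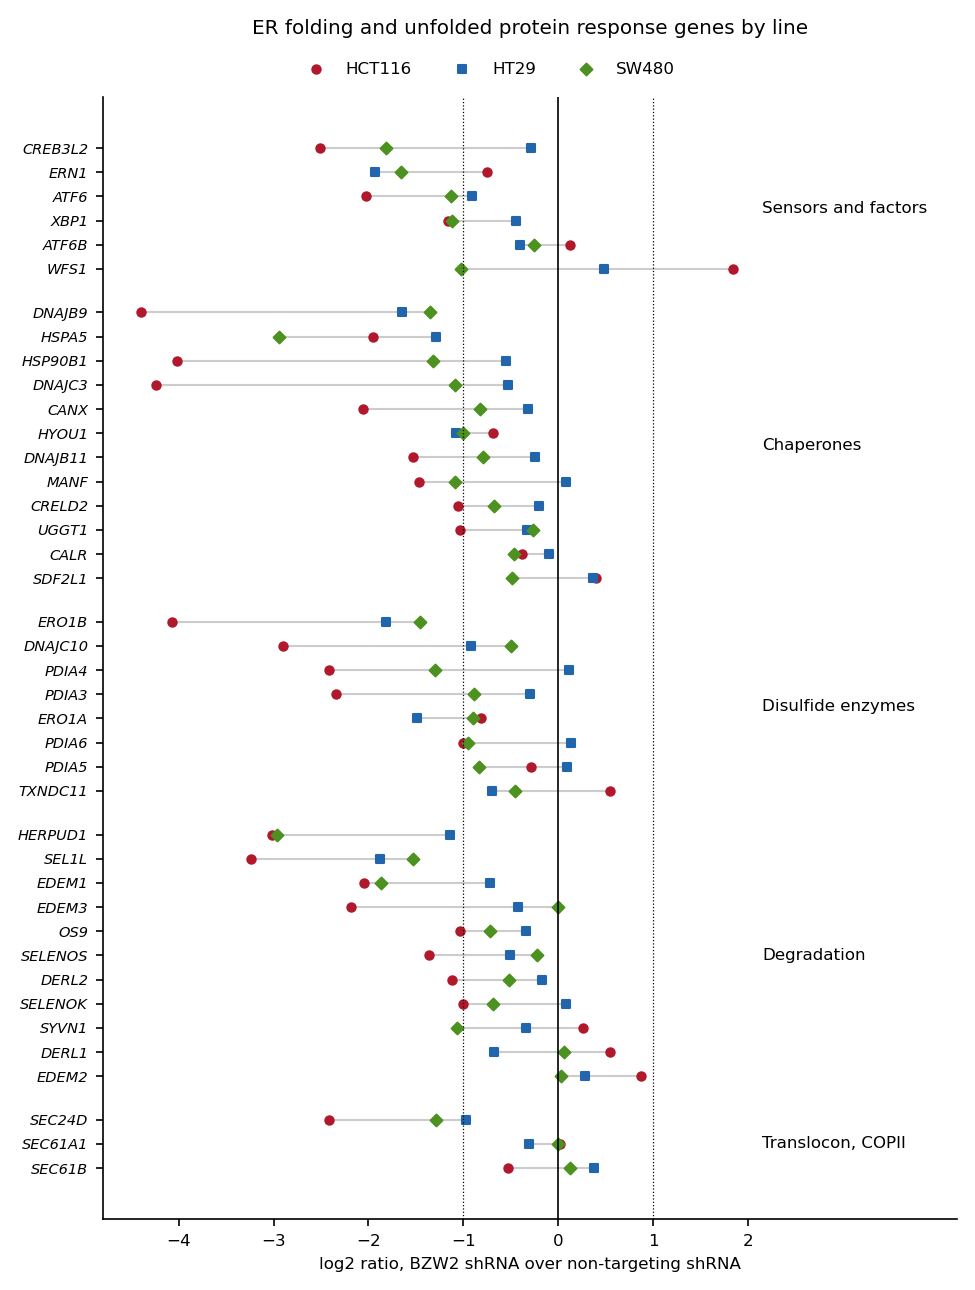
Log2 ratio of BZW2 shRNA over non-targeting shRNA (TMM-scaled CPM, x axis) for the 40 measured genes, grouped by role, with 1 point per line and dotted lines at 2-fold. Points of HCT116 reach −4.40, most points lie left of 0, and 5 genes lie beyond the left dotted line in all 3 lines.

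The sensors were split by gene. ERN1, ATF6, XBP1 and CREB3L2 were lower in every line, whereas ATF6B and WFS1 were not. In what follows, knockdown and control reads are the deposited normalised reads of the 2 libraries of a line, whose scale was set within that line, and a percentage of control is taken from recovered reads after TMM scaling with a 95% counting interval that covers counting error only. ERN1, which encodes the kinase and ribonuclease that splices XBP1 mRNA, had 98.5 knockdown against 161.7 control reads in HCT116, 156.4 knockdown against 590.0 control reads in HT29, and 83.2 knockdown against 261.0 control reads in SW480. Each pair was lower with BZW2 shRNA, at 59.0% of control in HCT116 (43.3 to 79.0%), 26.0% in HT29 (21.6 to 31.1%) and 31.2% in SW480 (24.3 to 39.9%). Of the 3 lines, HCT116 had the smallest ERN1 difference. For ERN1 the log2 fold change across lines was −1.42 ± 0.42 (SE of the limma fit, n = 3 lines, limma adjusted p = 0.289). With HCT116, the line of smallest difference, left out it was −1.77 (limma adjusted p = 0.00842). Leaving out HT29 instead gave −1.17 (adjusted p = 0.727 in limma), and leaving out SW480 gave −1.31 (0.411). ERN1 did not pass the threshold in DESeq2 (−1.48, adjusted p = 0.0575) or in the limma fit on corrected ratios (−1.46, adjusted p = 0.0780). Here and below, ± gives the SE of the limma fit across the 3 lines, whose variance is pooled in part over all genes. It is not the spread of the single gene between lines.

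ATF6, the sensor that is cleaved in the Golgi apparatus to a transcription factor, had 228.0 knockdown against 907.2 control reads in HCT116, 1234 knockdown against 2271 control reads in HT29, and 650.1 knockdown against 1398 control reads in SW480. All 3 pairs were lower, at 24.3%, 53.3% and 45.6% of control in HCT116, HT29 and SW480 (log2 fold change −1.32 ± 0.38, limma adjusted p = 0.278). XBP1, the factor made active by ERN1, had 173.3 knockdown against 376.6 control reads in HCT116, 3194 knockdown against 4286 control reads in HT29, and 293.9 knockdown against 625.9 control reads in SW480. By CPM per kb of transcript, HT29 held the most XBP1, with 159 in knockdown and 218 in control, and its difference was the smallest, at 73.1% of control (69.8 to 76.6%). These are reads of the whole gene, which do not separate spliced from unspliced XBP1. CREB3L2, an ER-anchored factor of the same structural class as ATF6, had 82.1 knockdown against 461.0 control reads in HCT116, 138.9 knockdown against 166.2 control reads in HT29, and 191.7 knockdown against 666.9 control reads in SW480, with the HT29 interval reaching 103% of control. In HCT116 the corrected log2 ratio was −0.88 for ERN1 (−0.75 before), −0.73 for ATF6 (−2.03 before), −0.27 for XBP1 (−1.16 before) and −2.28 for CREB3L2 (−2.51 before). ATF6 and XBP1 were thus short of 2-fold lower in HCT116 after correction.

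WFS1, which encodes the ER membrane protein wolframin, differed in direction between lines. It had 160.5 knockdown against 42.2 control reads in HCT116, 362.1 knockdown against 253.7 control reads in HT29, and 53.4 knockdown against 108.4 control reads in SW480. It was higher in HCT116 (368% of control, 268 to 506%) and in HT29 (140%, 119 to 165%) and lower in SW480 (48.2%, 34.3 to 67.3%). WFS1 had a transcript GC content of 59.5%, and its corrected HCT116 log2 ratio was 0.62, against 1.84 before. ATF6B, the paralog of ATF6, stood at 109%, 75.2% and 83.3% of control in HCT116, HT29 and SW480. The corrected HCT116 log2 ratio of ATF6B was −1.11, against 0.12 before, so its direction in that line depended on the correction.

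Among 12 chaperones and their cofactors, 10 were lower in every line, beside 21.1% of all genes. An unadjusted limma p under 0.05 was reached by 6, all lower, beside 7.04% of all genes lower at that level. HSPA5, the main Hsp70 chaperone of the ER and the protein that holds the sensors inactive, had 3740 knockdown against 13978 control reads in HCT116, 3942 knockdown against 9453 control reads in HT29, and 3533 knockdown against 26664 control reads in SW480. It was lower in each pair and stood at 25.9% of control in HCT116 (24.7 to 27.1%), 40.9% in HT29 (39.4 to 42.5%) and 13.0% in SW480 (12.5 to 13.4%). SW480 thus had the largest HSPA5 difference. The log2 fold change was −2.03 ± 0.44 (limma adjusted p = 0.250).

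HSP90B1, the ER Hsp90 also called GRP94, had 1275 knockdown against 20047 control reads in HCT116, 8779 knockdown against 12582 control reads in HT29, and 8609 knockdown against 21033 control reads in SW480. The HCT116 pair differed most, at 6.16% of control (5.70 to 6.63%), against 68.5% in HT29 and 40.1% in SW480. Its log2 fold change of −1.93 ± 0.62 (limma adjusted p = 0.305) was −0.90 without HCT116. By reads per kb of the longest transcript, HSP90B1, HSPA5, CALR and CANX had the highest mean rank of level among members in control libraries. These 4 transcripts together took 0.313% of knockdown and 1.62% of control reads in HCT116, 0.357% of knockdown and 0.505% of control reads in HT29, and 0.447% of knockdown and 1.20% of control reads in SW480.

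DNAJB9, an ER J-domain cofactor of HSPA5 that also represses ERN1, had 16.4 knockdown against 368.4 control reads in HCT116, 246.9 knockdown against 764.0 control reads in HT29, and 179.9 knockdown against 452.3 control reads in SW480. Each pair was lower with BZW2 shRNA. The HCT116 value rests on 9 recovered reads, 4.31% of control with an interval reaching 8.24%. HT29 held 31.7% and SW480 39.0% of control (log2 fold change −2.45 ± 0.59, limma adjusted p = 0.263, and −1.48 without HCT116). DNAJC3, a J-domain cofactor that also inhibits PERK, had 85.7 knockdown against 1601 control reads in HCT116, 1805 knockdown against 2556 control reads in HT29, and 880.7 knockdown against 1841 control reads in SW480. All pairs were lower, with HCT116 at 5.18% of control, HT29 at 69.3% and SW480 at 46.8%, and the fold change of −1.92 ± 0.64 was −0.78 without HCT116. Corrected HCT116 log2 ratios were −1.66 for HSPA5 (−1.95 before), −3.07 for HSP90B1 (−4.02 before), −3.36 for DNAJB9 (−4.40 before) and −2.86 for DNAJC3 (−4.24 before).

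The lectin chaperones bind glycoproteins as they fold. CANX, membrane-bound calnexin, had 2399 knockdown against 9659 control reads in HCT116, 14615 knockdown against 17860 control reads in HT29, and 7289 knockdown against 12637 control reads in SW480. It was lower in each pair, with HT29 at 80.3% of control, SW480 at 56.5%, and an HCT116 log2 ratio of −2.06 that was −1.06 after correction. CALR, its soluble partner calreticulin, stood at 76.6%, 93.7% and 72.5% of control in HCT116, HT29 and SW480, and UGGT1, the folding sensor that tags glycoproteins for another round of calnexin binding, at 48.8%, 79.4% and 83.4%. HYOU1, a large Hsp70-like exchange factor for HSPA5, had 1155 knockdown against 1800 control reads in HCT116, 1817 knockdown against 3776 control reads in HT29, and 1249 knockdown against 2458 control reads in SW480. Its percentages of control, 62.1%, 47.2% and 49.7% in the same order of lines, lay within a narrow range. After correction the HCT116 log2 ratio was −1.25 for CALR (−0.38 before), −0.09 for UGGT1 (−1.03 before) and −1.56 for HYOU1 (−0.69 before), which put CALR and HYOU1 past 2-fold lower and UGGT1 near 0.

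The remaining chaperones were small secreted or lumenal stress proteins and 1 further J-domain protein. DNAJB11 stood at 34.4%, 84.1% and 57.4% of control in HCT116, HT29 and SW480, and its HCT116 log2 ratio of −1.53 was 0.02 after correction. CRELD2 stood at 47.8%, 86.8% and 62.4%. MANF was at 36.0% in HCT116 and 47.0% in SW480 but at 106% in HT29 (95.3 to 118%). Its HT29 log2 ratio was 0.08 before and −0.12 after the trend correction. SDF2L1, a component of HSPA5 complexes, was not lower in 2 of the lines, at 132% in HCT116 (108 to 161%), 129% in HT29 (97.6 to 171%) and 71.0% in SW480 (56.6 to 89.1%). It is the member of highest GC content (65.5%), and its corrected ratios were −0.56, −0.04 and −0.48. For the secreted proteins the corrected HCT116 values were −1.98 for MANF (−1.47 before) and −2.04 for CRELD2 (−1.06 before).

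**Figure D2:**
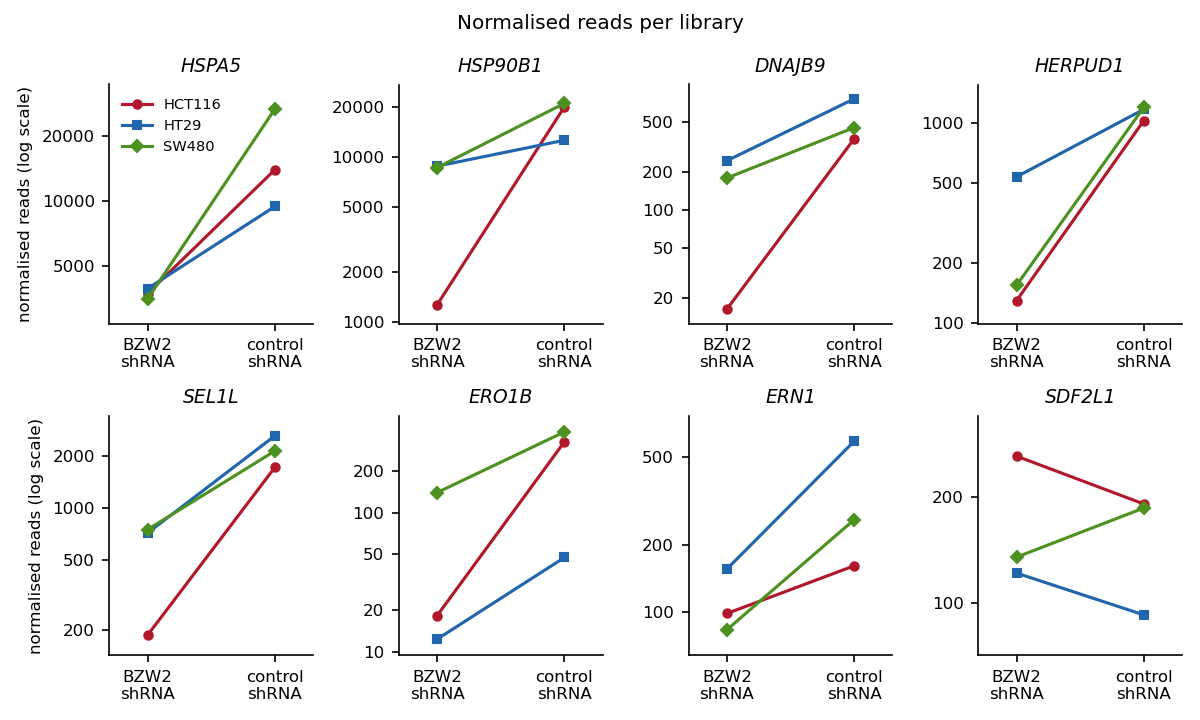
Deposited normalised reads (y axis, log scale, a different range in each panel) in the BZW2 shRNA and control shRNA library of each line, joined by a line, for 8 members. The first 7 are lower with BZW2 shRNA in every line, and SDF2L1, added after its values were seen, is lower in SW480 and higher in the other 2 lines. The scale was set within each line, so slopes and not heights compare lines.

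Of 8 disulfide enzymes, 8 were lower in SW480, 7 in HCT116 and 5 in HT29, where 5352, 5534 and 5324 of 10875 genes were. After the trend correction, 7 were lower in HT29. All 8 had negative log2 fold changes, where 48.9% of all genes did. Lower in every line were 4 of the 8, beside 21.1% of all genes. An unadjusted limma p under 0.05 was reached by 5, beside 7.04% of all genes lower at that level. ERO1B, an ER oxidase that recharges disulfide isomerases, had 18.2 knockdown against 322.3 control reads in HCT116, 12.3 knockdown against 47.6 control reads in HT29, and 139.3 knockdown against 379.3 control reads in SW480. Each pair was lower with BZW2 shRNA, although HT29 rested on 12 knockdown and 49 control reads (25.4% of control, 12.3 to 48.5%). Its log2 fold change of −2.46 ± 0.58 (limma adjusted p = 0.259) was close to that of DNAJB9, and was −1.65 without HCT116. ERO1A, the widely expressed paralog that is also known as a hypoxia target, had 445.1 knockdown against 760.8 control reads in HCT116, 941.3 knockdown against 2587 control reads in HT29, and 1084 knockdown against 1986 control reads in SW480. The largest ERO1A difference was in HT29, at 35.7% of control (33.1 to 38.5%), against 56.6% in HCT116 and 53.5% in SW480. The HCT116 direction of ERO1A depended on the correction, with a log2 ratio of 0.70 after it and −0.82 before, and its fold change of −1.03 ± 0.36 was −0.45 in the corrected fit. ERO1B kept a corrected HCT116 log2 ratio of −2.40 (−4.07 before).

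Before the trend correction, the protein disulfide isomerases were divided in HT29. PDIA4, an isomerase with several thioredoxin domains, had 959.6 knockdown against 4970 control reads in HCT116, 3903 knockdown against 3549 control reads in HT29, and 2057 knockdown against 4977 control reads in SW480. It was far lower in HCT116 (18.7% of control) and SW480 (40.5%) but slightly higher in HT29 (108%, 103 to 113%). PDIA6, an isomerase that also binds ERN1, was likewise at 49.8%, 109% and 51.7% of control in HCT116, HT29 and SW480. PDIA5, which acts on ATF6, was at 81.5%, 107% and 55.6%. After correction the HT29 log2 ratio was −0.02 for PDIA4 (0.11 before), −0.05 for PDIA5 (0.09 before) and 0.09 for PDIA6 (0.13 before). PDIA3, the isomerase that works with calnexin and calreticulin, had 649.5 knockdown against 3190 control reads in HCT116, 5008 knockdown against 6060 control reads in HT29, and 1966 knockdown against 3567 control reads in SW480. PDIA3 was thus lower in all pairs, at 19.7% of control in HCT116, 54.0% in SW480 and 81.1% in HT29. The isomerases had corrected HCT116 log2 ratios of −1.73 for PDIA3 (−2.34 before), −3.22 for PDIA4 (−2.42 before), −0.84 for PDIA5 (−0.29 before) and −0.80 for PDIA6.

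DNAJC10, an ER reductase that opens disulfides before degradation, had 189.7 knockdown against 1381 control reads in HCT116, 2685 knockdown against 4971 control reads in HT29, and 1166 knockdown against 1617 control reads in SW480. It was lower in each pair, but its HCT116 log2 ratio of −2.90 was −0.62 after correction, and its fold change of −1.41 ± 0.49 (limma adjusted p = 0.322) was −0.39 in the corrected fit. TXNDC11, a thioredoxin-domain protein of the ER membrane, stood at 147%, 61.4% and 72.4% of control in HCT116, HT29 and SW480. TXNDC11 had a corrected HCT116 log2 ratio of −0.19, against 0.54 before.

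Degradation genes held the 2 members of smallest p. HERPUD1, a ubiquitin-like protein that organises the degradation complex, had 129.5 knockdown against 1024 control reads in HCT116, 537.0 knockdown against 1165 control reads in HT29, and 154.6 knockdown against 1192 control reads in SW480. It was lower in each pair, at 12.2% of control in HCT116 (9.51 to 15.5%), 45.2% in HT29 (40.7 to 50.1%) and 12.7% in SW480 (10.7 to 14.9%). Its log2 fold change was −2.34 ± 0.45 (limma adjusted p = 0.250), −2.03 without HCT116 and −2.48 in the corrected fit. SEL1L, the partner that holds the ubiquitin ligase HRD1 in its complex, had 186.1 knockdown against 1708 control reads in HCT116, 718.1 knockdown against 2594 control reads in HT29, and 751.4 knockdown against 2123 control reads in SW480. It too was lower in each pair, and the log2 fold change was −2.18 ± 0.42 (limma adjusted p = 0.250) or −1.54 in the corrected fit. SYVN1, which encodes HRD1 itself, stood at 120% of control in HCT116 (89.2 to 159%), 78.4% in HT29 (60.9 to 101%) and 46.6% in SW480 (33.4 to 64.7%). Corrected HCT116 log2 ratios were −3.13 for HERPUD1 (−3.01 before), −1.60 for SEL1L (−3.23 before) and −0.72 for SYVN1 (0.26 before), so the direction of SYVN1 there depended on the correction.

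The EDEM proteins, which trim mannose from misfolded glycoproteins, went different ways. EDEM1 had 36.5 knockdown against 151.3 control reads in HCT116, 410.5 knockdown against 664.9 control reads in HT29, and 68.7 knockdown against 251.0 control reads in SW480, lower in each pair at 23.3%, 60.6% and 26.8% of control (log2 fold change −1.52 ± 0.44, limma adjusted p = 0.277). EDEM3 had 73.0 knockdown against 326.7 control reads in HCT116, 772.6 knockdown against 1018 control reads in HT29, and 416.9 knockdown against 408.1 control reads in SW480, where the interval spanned 87.1 to 115% of control. EDEM2 was the member higher in each line, at 185% in HCT116 (144 to 236%), 122% in HT29 (106 to 141%) and 102% in SW480 (83.8 to 123%), and its corrected HCT116 log2 ratio was −0.06. The corrected HCT116 log2 ratio was −1.46 for EDEM1 (−2.05 before) and −0.51 for EDEM3 (−2.18 before).

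Among the lectin and channel proteins, OS9, which delivers glycoproteins to SEL1L, had 326.6 knockdown against 650.1 control reads in HCT116, 902.3 knockdown against 1124 control reads in HT29, and 649.2 knockdown against 1045 control reads in SW480. SELENOS, a selenoprotein that recruits the extraction ATPase VCP, had 114.9 knockdown against 287.8 control reads in HCT116, 589.5 knockdown against 825.2 control reads in HT29, and 341.8 knockdown against 390.4 control reads in SW480. Both were lower in each pair, with log2 fold changes of −0.66 ± 0.36 for OS9 and −0.66 ± 0.39 for SELENOS. DERL2, a derlin of the retrotranslocation channel, stood at 45.5%, 88.6% and 69.6% of control in HCT116, HT29 and SW480, and its paralog DERL1 at 147%, 62.6% and 105%. SELENOK stood at 49.7%, 106% and 62.1%. The corrected HCT116 log2 ratio was −1.60 for OS9 (−1.04 before), −1.50 for SELENOS (−1.36 before), −0.24 for SELENOK, 1.41 for DERL1 (0.55 before) and 0.21 for DERL2 (−1.12 before), with DERL2 changing sign.

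Genes of entry into and exit from the ER were represented by 3 members. SEC24D, a cargo-binding subunit of the COPII coat of vesicles that leave the ER, had 52.9 knockdown against 280.1 control reads in HCT116, 230.4 knockdown against 445.2 control reads in HT29, and 191.7 knockdown against 461.2 control reads in SW480. It was lower in each pair, at 18.3%, 50.8% and 40.7% of control (log2 fold change −1.53 ± 0.43, limma adjusted p = 0.277). The channel subunits did not share a direction. SEC61A1, the pore of the translocon, had 1717 knockdown against 1642 control reads in HCT116, 3959 knockdown against 4828 control reads in HT29, and 2066 knockdown against 2022 control reads in SW480. SEC61B, its small subunit, had 155.1 knockdown against 218.2 control reads in HCT116, 751.0 knockdown against 566.7 control reads in HT29, and 372.5 knockdown against 335.1 control reads in SW480. Their log2 fold changes were −0.06 ± 0.35 for SEC61A1 and 0.02 ± 0.38 for SEC61B, with SEC61B turning negative in fits on TMM-scaled and library-size-scaled CPM (−0.03 and −0.10). Corrected HCT116 log2 ratios were −2.04 for SEC24D (−2.41 before), −0.29 for SEC61B (−0.53 before) and −0.78 for SEC61A1 (0.02 before), and SEC61A1 changed sign.

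Across the 40 members the order of differences was shared in part between lines. Log2 ratios correlated over genes at Spearman 0.45 between HCT116 and HT29, 0.60 between HCT116 and SW480 and 0.47 between HT29 and SW480. These pairs share no library but do share transcript length and base composition. With the trends on GC content and length removed, the values were 0.40, 0.64 and 0.41 in the same order. Over the members the ratio followed GC content at Spearman 0.66 in HCT116, 0.20 in SW480 and 0.45 in HT29. The 4 members with the lowest HCT116 ratios, DNAJB9, DNAJC3, ERO1B and HSP90B1, had a GC content of 40.4%, 39.9%, 37.0% and 41.2%, and their corrected HCT116 values were −3.36, −2.86, −2.40 and −3.07. The part of GC content in these HCT116 ratios was not tested beyond that correction.

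**Figure D3:**
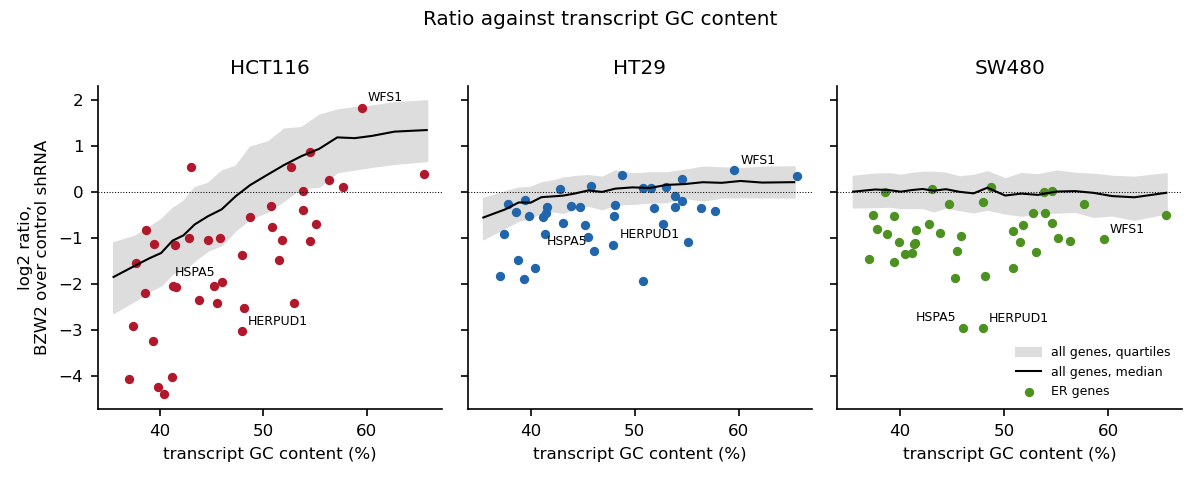
Log2 ratio of BZW2 shRNA over control shRNA (y axis) against the GC content of the longest transcript in percent (x axis) in each line, with members as points, and the median (line) and quartiles (grey) of all genes in 20 bins of GC content. The line of all genes climbs with GC content in HCT116 and is nearly level in SW480, and most members lie below it in every panel.

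Members with an ERSE or ERSE-II in their promoter window had a median fold change near that of the others. A larger share of them was lower in every line. The 11 such members had a median log2 fold change of −0.89 (range −2.46 to 0.13) with 9 lower in every line. The 26 measured members with a window and neither element had a median of −0.73 (range −2.45 to 0.47) with 14 lower in every line. Of all genes, 21.1% were lower in every line. HERPUD1 and HSPA5, printed above, were among the lowest members, whereas CALR and SDF2L1, also printed, were at −0.28 ± 0.37 and 0.13 ± 0.42. No test was made of these differences.

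Other parts of the pathway were followed as lists, of which 137 of 142 genes were measured. Most genes of the list named here the PERK branch were lower as well. The activity of PERK itself was not measured. Of the 11 measured genes of the list, 9 were lower in every line, beside 21.1% of all genes. The medians of the branch were −1.42 in HCT116, −2.06 in SW480 and −0.998 in HT29. DDIT3, which encodes CHOP, had 60.2 knockdown against 1108 control reads in HCT116, 420.8 knockdown against 2343 control reads in HT29, and 97.7 knockdown against 2321 control reads in SW480. ASNS, asparagine synthetase, had a log2 fold change of −1.96 ± 0.43 (limma adjusted p = 0.250) and CHAC1, a glutathione-degrading enzyme, of −2.16 ± 0.51 (limma adjusted p = 0.262). ATF4 mRNA stood at 27.9%, 79.2% and 42.8% of control in HCT116, HT29 and SW480, and EIF2AK3, the PERK gene, at 19.4%, 111% and 63.3%. These 2 were chosen after their values were seen.

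In HT29 and SW480, lists of the general machinery of the ER had medians nearer 0 than the 40 members did. Of 21 further genes of translocation, 7 were lower in every line, beside 21.1% of all genes. The list had medians of −1.36 in HCT116, −0.28 in SW480 and −0.05 in HT29. In it SEC63 and SEC62, partners of the translocon, had log2 fold changes of −1.59 ± 0.51 and −1.57 ± 0.46. That of SSR1, a subunit of the translocon-associated complex, was −1.18 ± 0.42. The HCT116 median of that list was −0.35 after correction. The 14 genes of N-glycan transfer and trimming had medians of 0.07, 0.16 and −0.19 in HCT116, HT29 and SW480, with the mannosidase genes MAN1A1 and MAN1A2 at −1.14 ± 0.41 and −1.04 ± 0.48 and MAGT1 at −0.88 ± 0.42. Of these 14 genes, 13 were lower in SW480, where 5352 of 10875 genes were. In every line 5 were lower and 1 was higher, beside 21.1% and 22.3% of all genes. The 11 COPII coat genes had medians of 0.08, 0.06 and 0.06 in HCT116, HT29 and SW480. Among them were SEC13 at 0.76 ± 0.40, SEC24A at −0.45 ± 0.36 and SEC16A at 0.41 ± 0.48. Of 22 further ER folding genes, 4 were lower in every line, beside 21.1% of all genes. Their medians were −0.35, 0.03 and −0.18 in HCT116, HT29 and SW480. DNAJB14, ERP44 and FKBP14 had the largest fold changes of that list (−1.44 ± 0.55, −1.27 ± 0.43 and −0.89 ± 0.44).

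Of 27 further degradation genes, 9 were higher and 7 lower in every line, beside 22.3% and 21.1% of all genes, with medians of 0.05 in HCT116, 0.01 in SW480 and 0.12 in HT29. UFD1, the cofactor with which VCP extracts proteins from the ER membrane, was at 309%, 170% and 202% of control in HCT116, HT29 and SW480 (log2 fold change 1.17 ± 0.37, limma adjusted p = 0.305), whereas FAM8A1 and ERLEC1 were at −1.10 ± 0.55 and −1.08 ± 0.46. Of 31 cytosolic and mitochondrial chaperone genes, 18 (58.1%) were higher in every line, beside 22.3% of all genes, and 1 was lower. The median log2 ratio of this list was 1.16 in HCT116, 0.54 in SW480 and 0.29 in HT29. AHSA1, HSPA8 and CCT7, which encode an Hsp90 cofactor, the constitutive Hsp70 and a subunit of the cytosolic folding ring, had log2 fold changes of 1.21 ± 0.40, 1.13 ± 0.43 and 1.09 ± 0.42. No gene of these lists passed the threshold in the main limma test. DESeq2 called 5 of the 11 PERK branch genes as lower, beside 1.23% of all genes. The corrected limma fit called 1, beside 0.0276% of genes lower and 0% higher. On 2 lines, limma called 7 as lower without HCT116 (1.39% of genes), 1 without HT29 (0.248%) and 1 without SW480 (0.855%). The difference between lists was not tested.

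**Figure D4:**
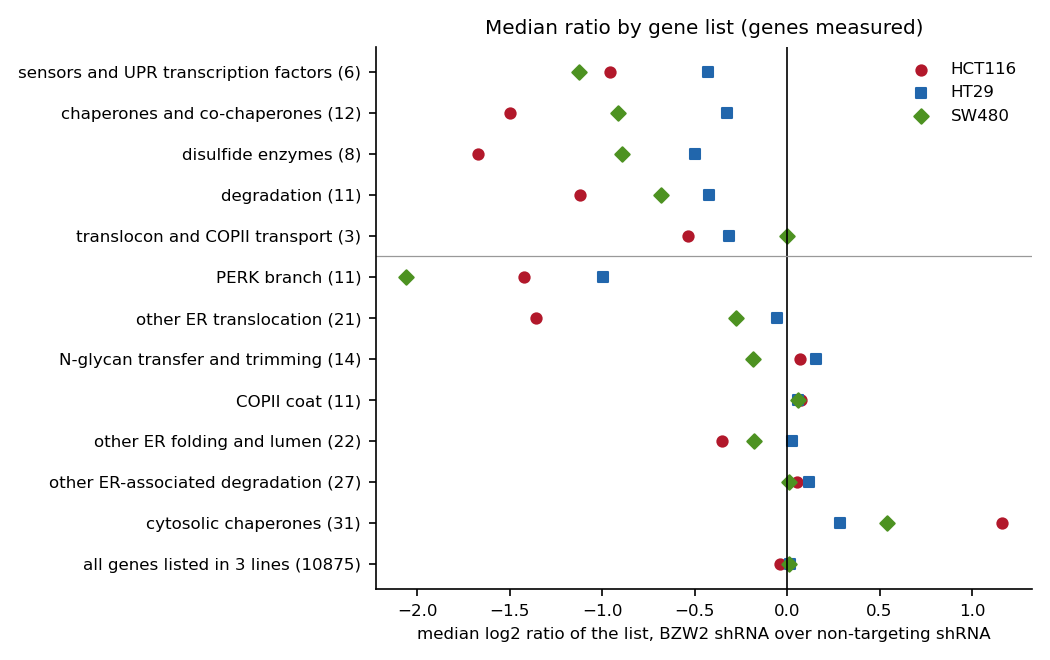
Median log2 ratio of BZW2 shRNA over non-targeting shRNA (x axis) in each line for the 5 role groups of members (above the grey line) and for 7 further lists and all genes, with the number of genes measured in brackets. The 5 role groups and the PERK branch lie at or left of 0, and the cytosolic chaperones right of 0, in all 3 lines.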

How the data were processed

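RNA was sequenced in 6 libraries, 3 of BZW2 shRNA and 3 of control shRNA cells, 1 of each per line, grouped by the treatment label. Per the submitters' processing notes, bcl2fastq 2.17, STAR 2.5.2b, DESeq and GRCh38 were named; the sources used here do not give the gene counter or strandedness, so reads of overlapping genes cannot be told apart. The table deposited by the authors held a normalised signal, gene reads divided by a size factor set within each line. Dividing by the smallest step gave whole reads (within 0.1 read) for 100% of values, taking the smallest value of the SW480 control as 2 reads. The 19 repeated identifiers of 13040 were left out. Genes at 20 or fewer reads over both libraries of a line appear not to be listed, as the smallest listed sum was 21.

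A table of gene names gave 13003 identifiers a symbol. GENCODE 29 held 13018 of them and gave the length and GC content of the longest transcript. The main test was limma 3.58.1 (R 4.3.3) on log2(value + 1), where 1 is the pseudocount, fitting treatment with the cell line as a block and a prior trend on level, over 10875 genes, Benjamini-Hochberg adjusted, two-sided, threshold 0.05. Such fold changes understate those of low genes. The line terms leave 2 residual degrees of freedom against 7.26 prior ones. Each SE printed after ± uses the variance so pooled, which can lie above or below that of the gene alone. HSP90B1 and CALR had SEs of 0.62 and 0.37, where their log2 ratios had an SD over lines of 1.82 and 0.19. Libraries of a line are paired by the shared cell line. Their deviations from group means correlated at 0.27 in HCT116, 0.45 in SW480 and 0.75 in HT29. The highest correlation of the knockdown library with another line's control was 0.23, 0.38 and −0.66 in the same order. Within a line, log2 ratios of TMM-scaled CPM (edgeR 4.0.16, prior count 2) were called at 2-fold where the higher library reached a CPM of 5, with no test. Intervals are exact Clopper-Pearson. Trends on GC content and log length were removed by loess (span 0.3). DESeq2 1.42.0 and edgeR on recovered reads were alternatives. The fits were tested on simulated data.

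The members and lists were chosen with earlier results of these data known. Members named with values in every library were those of largest fold change in each role, up to 5 sensors, 6 chaperones, 5 disulfide enzymes, 6 degradation genes and 3 others; up to 3 genes were named per further list. A planned look at protein sequences was not made.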

Additional observations from a re-analysis of the deposited data

Results flagged for a closer look

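WFS1 differed at least 2-fold in opposite directions in 2 lines, with a log2 ratio of 1.84 in HCT116 and −1.03 in SW480. The difference between lines was not tested, since each line had 1 library per treatment. The corrected ratios were 0.62 in HCT116 and −0.98 in SW480.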

How the results depend on the processing

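No gene passed an adjusted p under 0.05 in limma across the 3 lines, nor in edgeR, with other pseudocounts, with a minimum mean value of 50 or with other scalings. DESeq2 called 134 genes lower and 110 higher, 7 of them members (all lower), and the limma fit with the replicate block and GC and length correction called 3 genes lower. Leaving out a line gave 27 to 151 genes lower, 30 to 187 higher and 4 to 9 members lower at an adjusted p under 0.05, and 404 to 1052 genes higher, 524 to 928 genes lower and 11 to 16 members lower at an unadjusted p under 0.05. Library-size scaling gave 462 genes higher at an unadjusted p. Without the block that pairs the libraries of a line, 330 genes were lower and 306 higher at an unadjusted p, 16 members were lower at an unadjusted p against 19 with the block, and 0 genes or members were called after adjustment either way. Members higher in every line were 0 after trend removal and 2 to 3 with a line left out. Members lower in every line were 29 after trend removal, against 25 before.

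The log2 fold change of 7 members turned sign in some settings. Among them were WFS1 and EDEM2, whose main values (0.47 and 0.43) were the largest positive ones of the members. WFS1 was −0.057 with the correction and −0.25 to 1.21 with a line left out. SDF2L1 was −0.00076 with library-size scaling, −0.42 with the correction and −0.035 to 0.42 with a line left out, and EDEM2 was −0.055 with the correction. DERL1 was −0.039 with TMM scaling, with or without the block, −0.11 with library-size scaling, −0.041 in edgeR, −0.028 in DESeq2 and −0.28 to 0.35 with a line left out. SEC61B was −0.031 with TMM scaling, with or without the block, −0.10 with library-size scaling, −0.025 in edgeR, −0.011 in DESeq2, −0.029 with the correction and −0.17 to 0.28 with a line left out. With a line left out, TXNDC11 ranged from −0.55 to 0.081 and SEC61A1 from −0.13 to 0.048. Trend removal turned the HCT116 ratio of 9 members, among them DERL2 and DNAJB11, which had been 2-fold lower and became 0.21 and 0.016, and ERO1A, which became 0.70. The cause of these changes was not tested. Counts over 2 lines were added after seeing the data, and depth limits low members such as ERO1B, with 10 reads in the HCT116 knockdown library.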
